A study of Mus musculus with 2 samples.

Results

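The 9 genes described here are Fos, Fosb, Jun, Junb, Egr1, Atf3, Ier2, Myc and Btg2, taken by name as immediate early genes from a table of 35163 genes, in which all 9 were found. They were measured in individual fibers of the flexor digitorum brevis, which lies in the foot (FDB muscle). The cells are taken here as from 1 untreated male C57BL/6J mouse over 3 months of age. The study's methods name male mice of C57BL/6J and DBA2 backgrounds, and no mouse is marked for a cell. The muscle was digested with collagenase type II for 1.5 hours at 37 °C and triturated, and single myofibers were placed in 96-well plates by a large particle sorter, together with fragments from muscle cut with scissors. The libraries were made by mcSCRB-seq, which tags captured RNA with unique molecular identifiers (UMIs) so that copies made by PCR are counted once. Of 763 cells on 8 plates and 2 sequencing lanes, 171 had more than 5000 genes and less than 20% of counts from the 27 mitochondrial (mt-) genes and are called kept, and 592 are called excluded.

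By the myosin heavy chain gene with the most counts, the kept cells comprised 117 fast 2X (Myh1), 51 fast 2A (Myh2), 2 slow (Myh7) and 1 fast 2B (Myh4) cells, with 168 whole myofibers and 3 fragments among them. Kept cells had 28827 to 1542996 UMI counts, with a median of 239581, and excluded cells 20 to 305845, with a median of 16032. All cells shared the same muscle and digestion and are taken as of 1 strain. No myofiber was sampled without digestion, so a level before isolation was not measured. With all cells taken as from 1 mouse, a class of cells is 1 sample and no test between groups was possible. The 95% limits given below cover counting error only.

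Immediate early genes are transcribed within minutes of a stimulus by factors that are already in the cell, such as SRF with its ELK partners at CArG boxes and CREB at cyclic AMP response elements (CRE), without new protein synthesis. FOS and JUN family proteins pair to form AP-1, a transcription factor that acts on the later wave of genes. In muscle they respond to contraction, stretch and injury, and in many tissues they are known to rise during enzymatic dissociation.

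RefSeq promoter windows were at hand for 6 of the 9 members (Fos, Fosb, Jun, Junb, Atf3 and Btg2), and Egr1, Ier2 and Myc had no entry in the table. Windows of the 250 bases before the start site were searched on both strands. The core CRE letters TGACGT were found in 3 of the 6, Fos, Btg2 and Atf3, against 6.47% of all 32851 promoters, and the full palindrome TGACGTCA in Btg2, against 1.55%. The shorter letters TGACG, which lie within both, were found in 5 of the 6, with 17.8% of all promoters. No window held a CArG box by its core pattern or the AP-1 letters TGANTCA, which were in 1.47% and 6.75% of all promoters. The EGR letters GCGGGGGCG were found in Fosb (2.57% of all promoters) and the TATA letters TATAAA in Fos (12.4%). These are matches of letters in a short window, not measured binding. Sites further from the start were not searched, so a match missing here does not mean that the promoter lacks the site. The 3 windows with the core CRE are shown 5' to 3' on the strand of the gene, because they hold these letters, with CRE and TATA letters in capitals. Whether the letters bear on the levels was not tested.
Fos, chr12:85473640-85473889, plus strand, GRCm38.p6: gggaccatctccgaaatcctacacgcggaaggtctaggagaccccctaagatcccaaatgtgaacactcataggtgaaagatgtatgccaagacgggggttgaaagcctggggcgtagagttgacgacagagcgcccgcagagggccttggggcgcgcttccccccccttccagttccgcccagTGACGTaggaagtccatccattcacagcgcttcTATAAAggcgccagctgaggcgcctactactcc
Btg2, chr1:134079156-134079405, minus strand, GRCm38.p6: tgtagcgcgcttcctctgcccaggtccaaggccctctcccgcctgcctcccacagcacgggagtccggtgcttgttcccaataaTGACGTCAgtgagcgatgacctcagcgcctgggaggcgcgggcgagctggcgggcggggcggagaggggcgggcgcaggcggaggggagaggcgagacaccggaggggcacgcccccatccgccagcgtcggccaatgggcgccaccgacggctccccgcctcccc
Atf3, chr1:191183334-191183583, minus strand, GRCm38.p6: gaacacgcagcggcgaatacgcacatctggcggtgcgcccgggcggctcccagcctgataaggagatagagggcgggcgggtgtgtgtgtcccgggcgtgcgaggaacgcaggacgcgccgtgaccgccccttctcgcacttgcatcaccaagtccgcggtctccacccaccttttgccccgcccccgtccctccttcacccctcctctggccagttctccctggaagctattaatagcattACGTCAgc
The core CRE of Fos begins 66 bases before the start and that of Btg2 166 bases before it. In Atf3 the letters lie 8 to 3 bases before a RefSeq start that is inside the longer GENCODE gene.

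In GRCm38, Fos lies on the plus strand of chromosome 12 (85473890 to 85477273) and Myc on that of chromosome 15 (61985391 to 61990374), while Egr1 lies on the plus strand of chromosome 18 (34859823 to 34864984). Fosb is on the minus strand of chromosome 7 (19302696 to 19310051), Jun on chromosome 4 (95049034 to 95052222), Junb and Ier2 on chromosome 8 (84974484 to 84978718 and 84661331 to 84662852), and Btg2 and Atf3 on chromosome 1 (134075170 to 134079120 and 191170296 to 191218039), all on the minus strand. No stretch of 66 bases, the length of the cDNA read, in a transcript of a member was shared with a transcript of another gene. The gene Prdx2 overlaps the 3' end of Junb by 351 bases and the antisense gene Junos overlaps Jun by 689 bases, and as the strand setting of the counting is not given in the sources used here, reads in these stretches cannot be told apart. Across kept cells the levels of Prdx2 and Junb had a Spearman rho of 0.16, and those of Junos and Jun 0.10.

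Some kept cells carried RNA of other cell types, and among them were the highest cells for several members. The summed level of 35 markers of endothelial, fibroblast, smooth muscle and pericyte, immune, Schwann and satellite cells had a median of 301 CPM (each gene's counts scaled to the same library total, here without the counts of mt- genes) and quartiles of 209 and 388 CPM in kept cells, but 9 of the 171 cells had 1447 to 18836 CPM. The next highest cell had 952 CPM, and a threshold of 1000 CPM between them was chosen after seeing the data. Of the 9 cells, 7 were fast 2X, 1 was fast 2A and 1 was the fast 2B cell, and 1 of them was a fragment. Their 8 myofiber markers (Ttn, Acta1, Ckm, Mylpf, Tnnt3, Pvalb, Tcap and Neb) had a median of 42129 CPM, compared with 155378 CPM in the other 162 cells. The cell with the most such markers, on plate 710 with 39394 UMI counts, had 4950 CPM of Myh11 and 4239 CPM of Acta2, genes of smooth muscle contraction (here and from here on CPM of all gene counts unless stated), compared with medians of 4.61 and 3.59 CPM in the other kept cells. This cell ranked highest of all kept cells for Fos, Fosb, Junb and Ier2. The fast 2B cell ranked second for Fosb, Junb and Ier2. The 9 cells did not all move one way, as another on plate 710 had the lowest Fos of all kept cells (74.8 CPM) and no Ier2 count. Values are therefore given with and without these 9 cells where they matter.

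Fos, which encodes the AP-1 partner after which the family is named, had 25474 counts in kept cells, or 490.6 CPM of all gene counts (95% limits 484.6 to 496.7). It was found in 171 of 171 cells, and the level in a cell ranged from 74.8 to 1752 CPM with a median of 426 CPM. UMI counts of transcript ends are not divided by length, so levels are compared between groups of cells and not between genes. Fosb, a relative of Fos, had 49.6 CPM (limits 47.7 to 51.5) and a median of 28.9 CPM, and was found in 157 cells (91.8%, limits 86.6 to 95.4). Without the 9 cells that stood apart it had 45.6 CPM. Its highest cell held 1371 CPM and the second 358 CPM, both among those 9 cells.

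Jun, the other main AP-1 partner, had 374.6 CPM (limits 369.3 to 379.9), with cells from 32.8 to 1398 CPM and a median of 327 CPM. Junb, a JUN relative that can oppose JUN, had 323.2 CPM (limits 318.3 to 328.1), with cells from 33.3 to 1777 CPM and a median of 293 CPM. Both were found in 171 of 171 cells. The highest Jun cell was a fast 2A cell on plate 711 with 183068 UMI counts, which was also the highest for Egr1 and the second highest for Fos.

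Egr1, a zinc finger transcription factor, had 411.7 CPM (limits 406.2 to 417.3), with a median of 355 CPM and cells from 28.5 to 1617 CPM. Atf3, a stress-induced bZIP factor, had 287.6 CPM (limits 283 to 292.3), with a median of 216 CPM and cells from 33.2 to 1138 CPM. Btg2, an antiproliferative gene that promotes deadenylation of mRNA, had 291.6 CPM (limits 287 to 296.3), with a median of 250 CPM and cells from 25.4 to 975 CPM. These 3 genes were also found in each of the 171 cells. Ier2, a small nuclear regulator of transcription, was found in 165 cells (96.5%, limits 92.5 to 98.7) at 85.9 CPM (limits 83.4 to 88.5), with a median of 77.5 CPM and 965 CPM in its highest cell.

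Myc, a growth-promoting transcription factor, was low, though above each of 12 genes that muscle does not use. It had 89 counts in kept cells, or 1.71 CPM (limits 1.38 to 2.11), in 37 of 171 cells (21.6%, limits 15.7 to 28.6). These 12 genes of liver, pancreas, astrocytes, retina, kidney, lung and B cells were found in 0.585% to 16.4% of the same cells (median 4.68%). Their levels were up to 1.33 CPM, with a median of 0.327 CPM. Of the 89 Myc counts, 14 were in 1 cell, which was among the 9 that stood apart, and without those 9 cells Myc had 1.41 CPM. After each cell was thinned to 28827 counts, the smallest total of a kept cell, Myc was found in 4.09% of cells, Fosb in 54.4%, Ier2 in 83.6% and the other 6 members in 97.7% to 100%. The shares of Fosb, Ier2 and Myc thus moved with depth, while the other members were in nearly every cell at the lowest depth too.

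**Figure D1:**
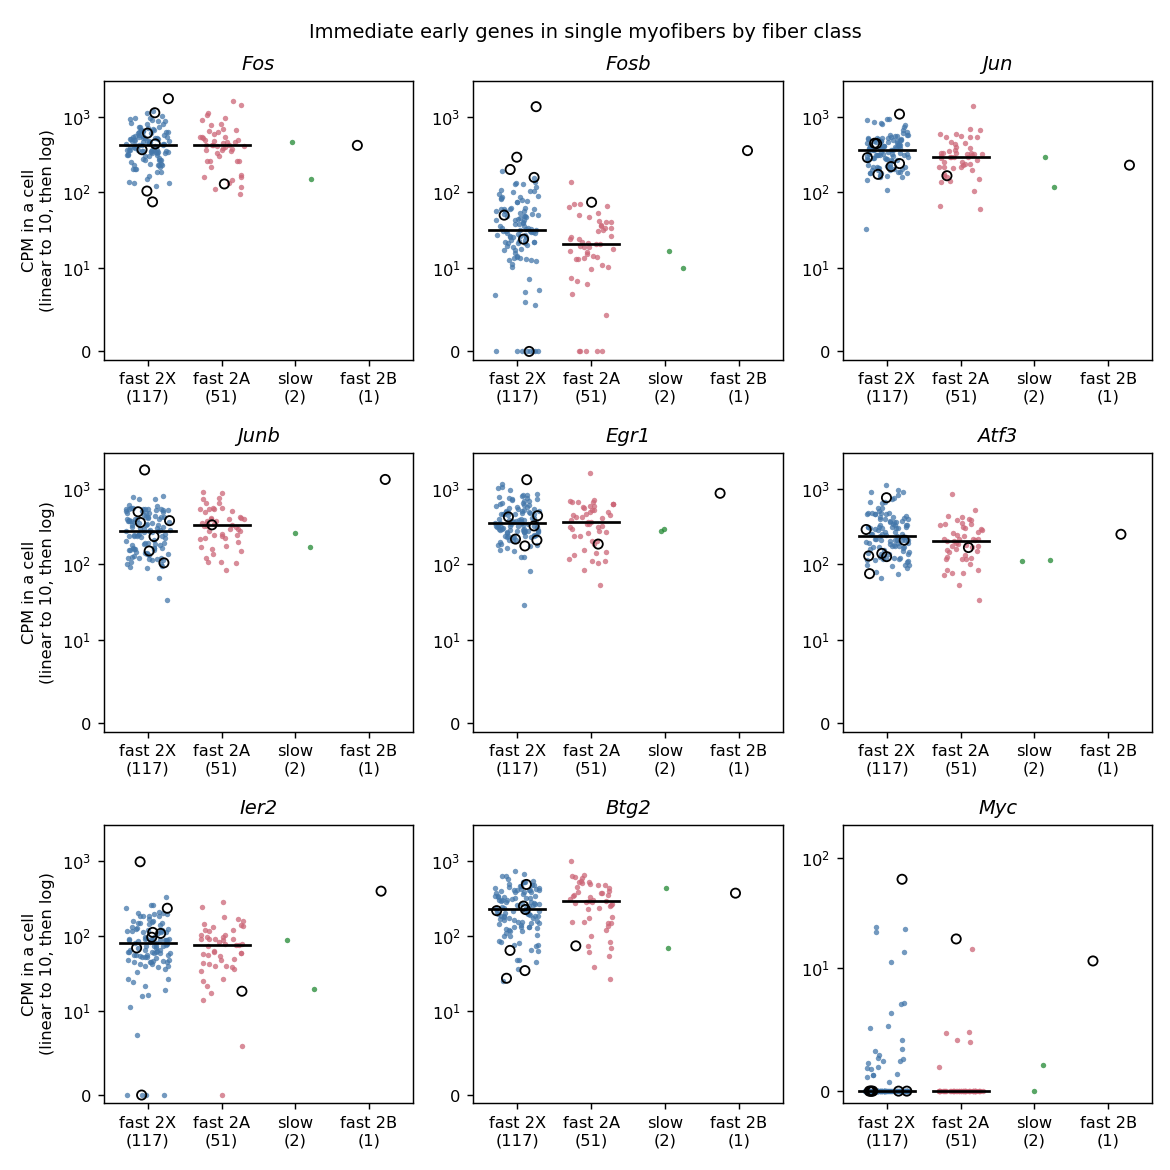
Level of each gene in each of the 171 kept cells (CPM of all gene counts, on an axis that is linear to 10 and logarithmic above), by fiber class with the number of cells in parentheses. Points are cells, bars are medians of classes with more than 2 cells, and open circles are the 9 cells with 1000 CPM or more of markers of other cell types, which hold the 4 highest Fosb values.

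Levels in fast 2A and fast 2X myofibers overlapped for all 9 genes, and Fosb was the member that differed most among the 8 with at least 100 counts. Fosb had 27.4 CPM (326 counts) in the 51 fast 2A cells and 54.8 CPM (2148 counts) in the 117 fast 2X cells, which is -1.0 on the log2 scale (limits -1.17 to -0.83). The middle 50% of cells spanned 11.9 to 36.3 CPM in fast 2A and 19.0 to 59.9 CPM in fast 2X, so single cells of both classes were found over most of the range. Fosb was lower in fast 2A cells on 7 of 8 plates. It was 18.2 against 15.5 CPM on plate 705, 11 against 38.2 on plate 706, 21.6 against 51.2 on plate 707 and 44.0 against 75.4 on plate 708, fast 2A first. On the second lane it was 27.0 against 62.2 CPM on plate 709, 16.1 against 51.2 on plate 710, 36.7 against 61.2 on plate 711 and 31.6 against 48.2 on plate 712. The one plate in the other direction, 705, had 46 and 23 counts, with limits of the log2 ratio from -0.52 to 1.02. The summed markers of smooth muscle and pericytes moved the same way, at 27.6 CPM in fast 2A and 51.9 CPM in fast 2X myofibers (6 of 6 genes lower). So did all 35 markers, at 319.9 and 374.5 CPM (22 of 35 lower, log2 ratio of the sum -0.23). The median of all genes with at least 100 counts was itself lower in fast 2A cells (-0.12). The share of all genes that were lower is not given, so these counts cannot be read as particular to the markers. In single cells the 35 summed to 68.0 to 5668 CPM in fast 2A and 90.7 to 18099 CPM in fast 2X. Without the cells that stood apart, which left 50 fast 2A and 110 fast 2X cells, the smooth muscle and pericyte markers had 25.3 and 26 CPM (log2 ratio -0.04, limits -0.23 to 0.15) and Fosb had a log2 ratio of -0.93. In excluded cells, where 66 fast 2A and 420 fast 2X cells had at least 20 myosin counts, the log2 ratio of Fosb was -0.29 (limits -0.64 to 0.05).

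At least 2-fold lower in fast 2A cells was 1 of the 8 members tested, Fosb, against 4.46% of 15691 genes with at least 100 counts, and none was at least 2-fold higher, against 1.2%. With totals that leave out mt- genes, or with trimmed mean of M values scaling, the log2 ratio of Fosb was -0.97 and -0.89 and no member passed 2-fold, against backgrounds of 4.04% and 3.18% lower and 1.28% and 1.59% higher.

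The other AP-1 subunits were closer. Fos had 522 CPM in fast 2A and 483 CPM in fast 2X cells (log2 ratio 0.11), with medians over cells of 426 and 428 CPM. Jun had 354 and 383 CPM (-0.11), and with trimmed mean of M values scaling its ratio was -0.00079. Junb had 345 and 311 CPM (0.15) and was higher in fast 2A cells on 6 of 8 plates. Per spike-in molecule the log2 ratios of Fos and Junb in kept cells were -0.05 and -0.02. In excluded cells Fos was at -0.31 (limits -0.47 to -0.14) and Junb at 0.03 (limits -0.15 to 0.20).

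Btg2 was higher in fast 2A cells on 7 of 8 plates, with 323 CPM against 280 CPM (log2 ratio 0.20, limits 0.15 to 0.26). The plates spread from -0.03 to 0.74 in log2 ratio, a spread that is wider than the counting limits. Per spike-in molecule the log2 ratio of Btg2 was 0.04, and in excluded cells it was -0.13 (limits -0.37 to 0.11). Atf3 had 241 CPM in fast 2A and 305 CPM in fast 2X cells (-0.34, limits -0.40 to -0.28), but the lanes differed, with a log2 ratio of -0.60 on lane 1 and -0.06 (limits -0.15 to 0.03) on lane 2. Egr1 was 405 and 412 CPM, a log2 ratio of -0.02 with limits that include 0, and its sign turned with totals that leave out mt- genes (0.01) and with trimmed mean of M values scaling (0.09). Ier2 was 73.8 and 87.7 CPM (-0.25), with 2 plates in the other direction. Myc had 8 counts in fast 2A cells and 77 in fast 2X cells, or -1.55 on the log2 scale with limits from -2.81 to -0.50, and was below the minimum of 100 counts.

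The 2 slow cells were both below the medians of all kept cells for Jun (119 and 292 CPM), Fosb (9.94 and 16.7 CPM) and Atf3 (109 and 115 CPM), and on both sides of the median for Fos (149 and 459 CPM). Each of these values lay inside the range of fast 2X or fast 2A cells. The fast 2B cell had 1331 CPM of Junb, 872 CPM of Egr1 and 358 CPM of Fosb, but it also had 3424 CPM of fibroblast markers (totals without mt- genes). The part of that RNA in its levels was not tested.

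**Figure D2:**
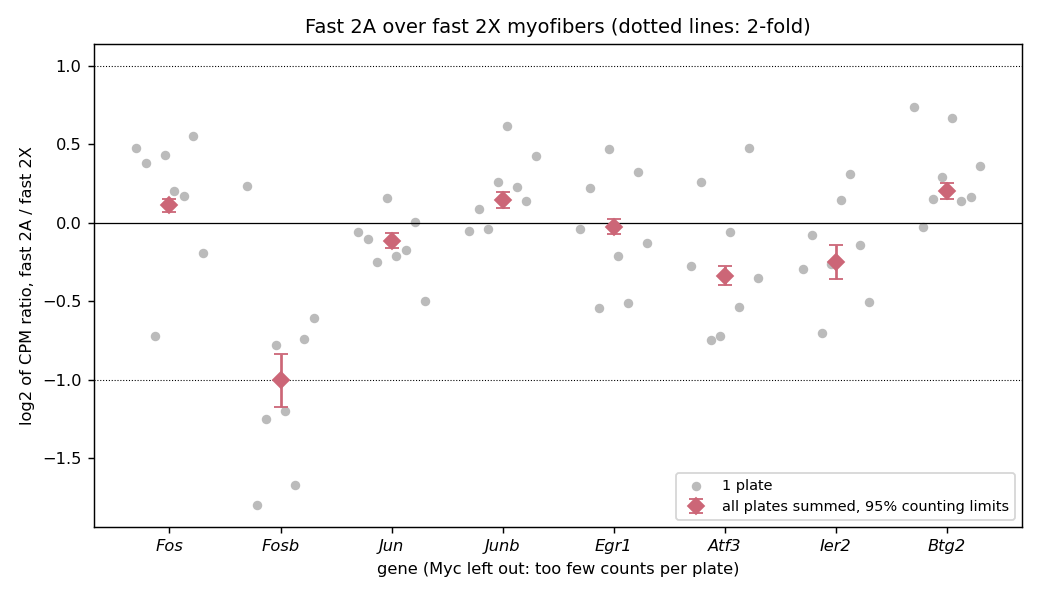
Log2 ratio of the CPM in fast 2A over fast 2X kept cells for 8 genes, with all plates summed (diamonds, bars are exact 95% counting limits) and on each of the 8 plates (grey points). Fosb sits at -1.0 with 7 of 8 plates below 0, and the plates of the other genes fall on both sides of 0.

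The 9 genes differed in how far they spread between myofibers. The mean level in a cell was 479 ± 282 CPM for Fos, 371 ± 200 CPM for Jun, 336 ± 223 CPM for Junb, 412 ± 241 CPM for Egr1, 277 ± 193 CPM for Atf3 and 274.5 ± 169 CPM for Btg2 (SD, 171 cells). After counting error was taken out, the coefficient of variation was 0.52 for Jun, 0.57 for Egr1, 0.58 for Fos, 0.60 for Btg2, 0.65 for Junb, 0.68 for Atf3, 0.94 for Ier2 and 2.2 for Fosb. The median over 2687 other genes with a mean of at least 50 CPM was 0.489, and 57.5% of those genes were less variable than Jun, 69.9% less than Fos and 85% less than Atf3. All 8 members were thus above the median gene, Jun by the least. Fosb met the minimum of 50 CPM, with a mean of 50.3 CPM, only through the 9 cells that stood apart. Without them its mean was 37.5 CPM. The values of Fosb and Ier2 rested most on the 9 cells that stood apart, the top one on plate 710 included, and without them were 0.81 and 0.62, while those of the other 6 were between 0.51 and 0.67. The median of 0.489 over other genes is of all 171 kept cells, so it is not matched to the values without the 9 cells.

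Between plates, Fos was lowest on plate 705 (376 CPM) and highest on plate 712 (575 CPM), a 1.53-fold range. Jun, Egr1, Atf3, Ier2 and Fosb were also lowest on plate 705, at 301, 290, 177, 64.8 and 17.2 CPM. Their highest plates were 711 for Jun, Egr1 and Ier2 (451, 501 and 109 CPM) and 708 for Atf3 and Fosb (422 and 68.7 CPM). Plate 708 was also the lowest plate for Junb, with 220.5 CPM, while Junb and Btg2 were highest on plate 712, with 464 and 413 CPM. The plates did not move the 9 genes as one block. Plate 705 held 10 fast 2A and 6 fast 2X kept cells, the only plate with more fast 2A than fast 2X cells.

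The plate range was 3.99-fold for Fosb, 2.39-fold for Atf3 and 2.11-fold for Junb, compared with a median of 1.58-fold over the 2687 genes. The share of the variance of log2(CPM + 10) between plates was highest for Junb (16.7%) and Atf3 (11%) and was 5.56% to 7.95% for the other 6 members, while the median gene had 7.98%. Most of the spread of each member was therefore between cells of the same plate. Between lanes, Junb was 273 CPM on lane 1 and 370 CPM on lane 2 and Egr1 was 373 and 448 CPM, while Fos was 489 and 492 CPM.

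Across the 171 kept cells the members other than Myc rose and fell together. All 28 pairs of the 8 had a positive Spearman rho, with a median of 0.46 and a range from 0.25 to 0.68. No share over pairs of other genes is given, so the 28 cannot be read as particular to these genes. The closest pairs were Junb with Btg2 (0.68), Junb with Egr1 (0.67), Egr1 with Btg2 (0.63) and Fos with Egr1 (0.61). The AP-1 partners Fos and Jun had 0.51, while Jun and Junb, of the same protein family, had the lowest value (0.25). Myc was between -0.09 and 0.12 with each of the others, at a level where most cells had no count.

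The pattern was similar inside the classes, with a median of 0.45 in fast 2X and 0.44 in fast 2A cells, and without the 9 cells that stood apart (0.48). Each of the pairs of Egr1 with Fos, Junb, Atf3 and Btg2 was positive on all 8 plates. After thinning to 28827 counts the median fell to 0.32, with 28 of 28 pairs above 0. The cells share library pools and sequencing lanes, so these are descriptions over cells and not over animals.

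The summed level of the 9 genes in a cell ranged from 756 to 9519 CPM with a median of 2080 CPM. It had a rho of 0.06 with the total UMI count and of -0.49 with the share of mt- counts, or -0.42 with mt- genes left out of the totals. Junb was the member most tied to that share (-0.55) and Fosb the least among the 8 (-0.21). The rho of the sum was -0.21 with the summed myofiber markers and 0.02 with the endothelial markers. The part of the mitochondrial share in these levels was not tested.

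**Figure D3:**
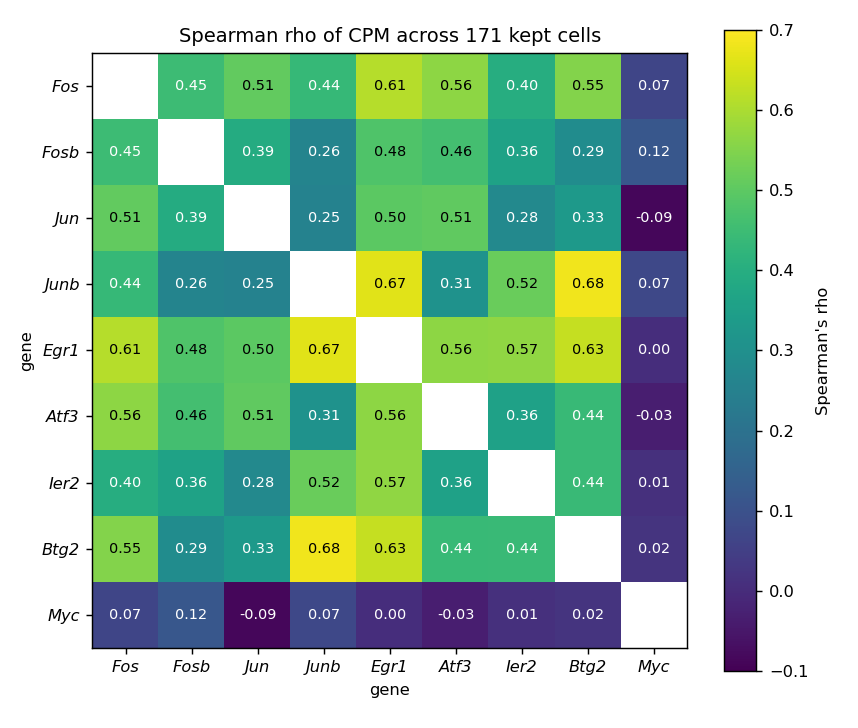
Spearman's rho between the CPM of each pair of the 9 genes across the 171 kept cells, as color and as a printed value. The block of Egr1, Junb and Btg2 reaches 0.63 to 0.68, and the row of Myc stays between -0.09 and 0.12.

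The 10 genes most like the summed members, of 11401 genes found in at least 50% of kept cells, were Zfp36 (rho 0.66), Socs3 (0.65), Ifrd1 (0.60), Cebpd (0.58), Gadd45g (0.58), H3f3b (0.56), Ccnl1 (0.56), Otud1 (0.56), Gadd45b (0.54) and Midn (0.54). The median gene had 0.05 and 90% of genes lay between -0.09 and 0.21. Zfp36 encodes an RNA-binding protein that speeds mRNA decay, Socs3 an inhibitor of cytokine signaling, Cebpd a transcription factor and the Gadd45 genes stress sensors. The list of other immediate early genes, with 43 genes measured, held 5 of the 10. That list was chosen with earlier results of these data known, and its share of the 11401 genes was not counted. Without the 9 cells that stood apart the 10 genes ranked 1 to 15, with Zfp36 and Socs3 at the top.

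In excluded cells most members took a smaller share of all counts, by a difference that was smaller once mt- genes were left out. Fos had 205.6 CPM (3206 counts) against 490.6 CPM in kept cells (log2 ratio -1.25, limits -1.31 to -1.20), and Btg2 had 86.7 against 291.6 CPM (-1.75). At least 2-fold lower were 6 of the 9 members (Fos, Jun, Junb, Egr1, Atf3 and Btg2), against 36.3% of 17058 genes, and none was at least 2-fold higher, against 4.64%. The median of the members was -1.14 and the median of all genes -0.64. These shares are bound to the filter, as excluded cells had a median of 48.0% mt- counts and kept cells 5.96%.

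With totals that leave out mt- genes, which shift the median gene to 0.34, Fos was 433 against 522 CPM (log2 ratio -0.27), Jun 366 against 398 (-0.12), Junb 308 against 344 (-0.16), Egr1 365 against 438 (-0.26) and Atf3 238 against 306 CPM (-0.36). Btg2 was still the lowest, with 182.5 against 310.2 CPM (-0.76, limits -0.85 to -0.68), and it was lower on all 8 plates. None of the 9 was then at least 2-fold lower, against 5.4%, and Myc was at least 2-fold higher, against 29.8% of 17036 genes. Ier2 turned from a log2 ratio of -0.92 to 0.07, and Fosb from -0.07 to 0.92 (limits 0.80 to 1.03), higher on 8 of 8 plates. With trimmed mean of M values scaling Fosb was at 0.34, Ier2 at -0.51, Btg2 at -1.34 and Myc at 1.22, so that Btg2 was past 2-fold lower (17.6% of genes) and Myc past 2-fold higher (11.6%).

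Per spike-in molecule all 9 members were lower in excluded cells, from -1.54 for Myc and -2.42 for Fosb to -4.10 for Btg2 in log2 ratio, with a median of -3.50. In these data less RNA per cell and fewer captured molecules per cell cannot be told apart. Thinned to 5000 counts, which left out 138 excluded cells that were shallower, Fos was found in 83.0% of kept and 61.7% of excluded cells, Btg2 in 70.2% and 31.5%, and Fosb in 15.8% and 14.8%. These 5000 counts include mt- counts, with medians of 48.0% in excluded and 5.96% in kept cells, so depth without mt- genes was not matched. Before thinning Fos was found in 489 of the 592 excluded cells (82.6%), Btg2 in 379 (64.0%) and Fosb in 217 (36.7%).

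Within excluded cells, Fosb and Myc were higher in those with more markers of other cell types. Of the excluded cells, 281 had 1000 CPM or more of the 35 markers (totals without mt- genes) and 311 had less. Excluded cells went down to 20 UMI counts, and in the shallowest a single marker count passes this threshold, so the split also depends on depth. The summed level of each of the 6 marker lists was higher in excluded than in kept cells, by 1.51 (Schwann) to 2.98 (smooth muscle and pericyte) in log2 ratio. The 12 genes that muscle does not use were also higher, at 14.3 against 5.72 CPM (log2 ratio 1.32). Among excluded cells Fosb was 138 CPM (567 counts) in those with 1000 CPM or more and 51.5 CPM (170 counts) in the others, a log2 ratio of 1.42 (limits 1.17 to 1.68). Myc was 10.2 CPM (42 counts) and 1.51 CPM (5 counts), a log2 ratio of 2.76 (limits 1.42 to 4.45). Junb was 365 and 237 CPM (0.62), while Fos, Atf3 and Btg2 were lower in the cells with more of these markers (-0.14, -0.27 and -0.35). The median gene was 0.45 higher in them, and 28.8% of 9291 genes were at least 2-fold higher and 0.312% at least 2-fold lower.

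Between excluded and kept cells that both had less than 1000 CPM of these markers, Fosb was 51.5 against 48.5 CPM (log2 ratio 0.09, limits -0.15 to 0.31) and Myc 1.51 against 1.50 CPM, with limits from -1.65 to 1.31. The remaining members were at -0.60 (Btg2), -0.50 (Junb), -0.32 (Egr1), -0.25 (Jun), -0.23 (Atf3), -0.20 (Fos) and 0.03 (Ier2), when the median gene was at -0.07. None was past 2-fold, against 7.21% lower and 7.31% higher of 15752 genes. Btg2 and Junb were thus the lowest in this comparison, and the limits of Fosb and Myc included 0. With all gene counts as totals, the same cells had log2 ratios of -0.90 for Fosb and -0.97 for Myc.

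**Figure D4:**
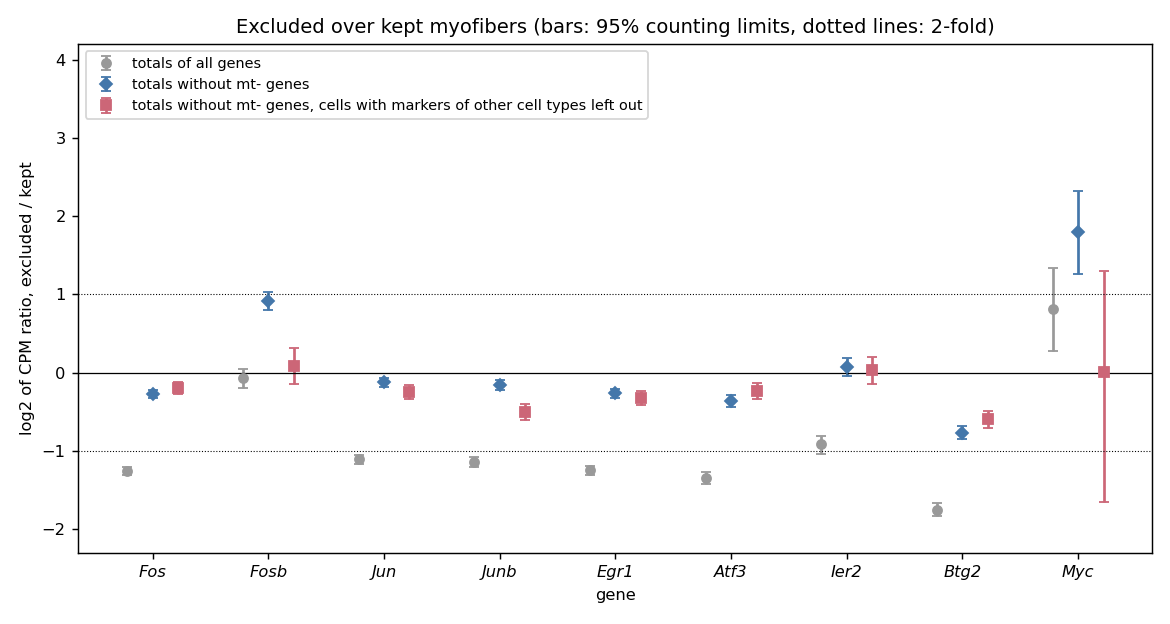
Log2 ratio of the CPM in excluded over kept cells for each gene, with totals of all genes (circles), with totals that leave out mt- genes (diamonds) and also without the cells that had 1000 CPM or more of markers of other cell types (squares). Bars are exact 95% counting limits, and Fosb moves from -0.07 to 0.92 and to 0.09 over the 3 settings while Btg2 stays below 0.

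The members also differed by the filter that had removed a cell. The 107 cells removed for too few genes alone, with a median of 2247 UMI counts, had members close to kept cells with totals that leave out mt- genes, with a median log2 ratio of 0.01 and a range from -0.29 (Fos) to 0.65 (Fosb). Atf3 was 405 CPM in them against 306 CPM in kept cells (0.40, limits 0.18 to 0.63). The 111 cells removed for mt- counts alone had Btg2 at -0.86, Atf3 at -0.44 and Fosb at 1.22, and those removed by both filters had Btg2 at -0.77 and Fosb at 0.37. Btg2 was thus low in the groups with many mt- counts and at 0.01 in the group without. The median gene was at 0.47 in cells removed for mt- counts alone, with 35.8% of genes at least 2-fold higher. It was at 0.02 in those removed by both filters (13.3%) and at -0.02 in those removed for too few genes alone (14.4%). In the same order the median of the 8 myofiber markers was -0.62, -0.31 and -0.17. Among excluded cells, the 90 fragments had 62.8 CPM of Fosb against 110 CPM in the 502 whole myofibers (log2 ratio -0.81, limits -1.12 to -0.51), and 479.5 against 420 CPM of Fos (0.19). As each plate held its fragments in a single row, the row and the fragment cannot be told apart.

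Other genes of the response were measured from lists. Of 10 other AP-1 and ATF genes, Atf4 (187 CPM), Jund (54.3), Fosl2 (41.0), Mafk (35.8) and Maff (31.2) were the highest in kept cells, and none of the 8 tested was 2-fold apart between fast 2A and fast 2X cells. Of the other immediate early genes Nr4a1 (258 CPM), Gadd45g (158), Nr4a3 (135), Cebpb (133) and Gadd45b (132 CPM) were the highest. At least 2-fold lower in fast 2A cells were 3 of 40, Dusp2 (6.72 against 14.0 CPM), Dusp5 (4.37 against 10.1) and Dusp6 (1.85 against 7.45 CPM, log2 ratio -2.01, limits -2.71 to -1.39), phosphatases that act on MAP kinases, against 4.46% of all genes tested. With trimmed mean of M values scaling Dusp2 was at -0.95 and no longer past 2-fold. None was higher, against 1.2%, although Id2, an inhibitor of bHLH factors, was at 0.98 and passed 2-fold with totals that leave out mt- genes. The median of the 40 was -0.12, and so was that of all genes tested.

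Among 18 upstream kinases and factors, Map2k2 (276 CPM), Mapk14 (94.5), Rps6ka3 (93.3) and Srf (72.9 CPM) were among the highest and none of 17 tested was 2-fold apart between the classes. Of 8 heat shock genes, Cryab (1623 CPM) and Hspb1 (885 CPM) were the highest and none was 2-fold apart. In excluded cells 17 of 41 other immediate early genes were at least 2-fold lower, against 36.3% of all genes tested, among them Nr4a1 (79.1 against 258 CPM) and Ctgf (10.5 against 43.9 CPM), and 2, Ier5l and Zfp36l2, were higher, against 4.64%. With totals that leave out mt- genes Ctgf was the only one of the 41 still 2-fold lower, against 5.4% of all genes, and 7 were 2-fold higher, against 29.8%. The ETS factor Elk3 had a log2 ratio of 1.32 and the heat shock genes Cryab and Hspb1 of -1.58 and -1.65 with all gene counts as totals, and without mt- genes they were at 2.31, -0.59 and -0.67.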

How the data were processed

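Per the study's methods, reads were mapped with STAR 2.5.4b to GRCm38 with spike-ins, and UMIs per gene were counted with featureCounts through zUMIs. The labels name STAR 2.5.4b and featureCounts and also Cell Ranger 3.1.0, which the study's methods do not name. The deposited table holds raw UMI counts per gene for 763 cells with 10 rows that describe the cells, so its columns mix units, and no count model was fitted. From it, each group's cells were pooled by adding their counts, which were scaled to CPM of the group's total, with and without mt- genes (python 3.11.15, pandas 2.3.3, scipy 1.17.1). Limits are exact Poisson, Clopper-Pearson or conditional binomial. Changes of 2-fold were counted over genes with at least 100 summed counts. Ratios were also computed with trimmed mean of M values factors, per spike-in, by lane and by plate. Cells were not screened for doublets, and the 96 well barcodes recur on each plate, so that a cell is known by plate index and well barcode together, of which none occurred more than once. The 9 members, the gene lists and the threshold of 1000 CPM were chosen with earlier results of these data known. Beside the members, the 5 highest genes of each list, those past 2-fold and the 10 most like genes could be named, and 1 of these genes is not reported here. The step that computes ratios was tested on simulated data.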

Additional observations from a re-analysis of the deposited data

How the results depend on the processing

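No paired analysis was possible because the 2 lanes hold different plates of what is taken as 1 mouse, and no test was run. The median of the 9 members in excluded over kept cells, -1.14 in log2 ratio, became -0.16 without mt- genes in the totals, -0.84 with the mean over cells, -0.74 with trimmed mean of M values factors, -0.23 without mt- genes and without the cells with markers of other cell types, and -3.50 per spike-in molecule, with lanes from -1.23 to -1.02. The median share of kept cells with a count fell from 100% to 97.7% after thinning, and the median rho of 28 pairs from 0.46 to 0.32 (lanes 0.42 to 0.48). Counts below cover the members and the lists of other AP-1 and ATF genes and of other immediate early genes. Of these, 8, 8 and 40 genes were tested between the classes and 9, 9 and 41 between excluded and kept cells. In fast 2A over fast 2X cells, 0 were at least 2-fold higher, and 1 with trimmed mean of M values factors, 1 without mt- genes and 2 without the cells with other markers (lanes 0 to 1). Those at least 2-fold lower were 4, and 2 with a minimum of 500 counts or trimmed mean of M values factors (3 with either lane). Over all genes 4.46% were lower and 1.2% higher. With trimmed mean of M values factors these shares were 3.18% and 1.59%, and without mt- genes 4.04% and 1.28%. In excluded over kept cells, 2 were higher, and 0 with a minimum of 500 counts or without the cells with other markers, 6 with trimmed mean of M values factors and 11 without mt- genes (lanes 1 to 3). Those lower were 26, and 7 with trimmed mean of M values factors, 1 without mt- genes and 41 without the cells with other markers (lanes 21 to 28). Over all genes 36.3% were lower, 17.6% with trimmed mean of M values factors and 5.4% without mt- genes. The shares higher were 4.64%, 11.6% and 29.8%. No share over all genes is given for the 41, so it cannot be read as particular to these lists. The alternative without cells that carry other markers was added after seeing the data, as was leaving mt- genes out for these counts of genes and for the pairs. Of the values of single members, those of kept levels moved by less than the spread of the 8 plates under each alternative. For fast 2A over fast 2X, 2 of 171 moved by more, both for Myc. For excluded over kept, 38 of 171 moved by more, and for Myc the direction turned, from 1.80 without mt- genes and 1.22 with trimmed mean of M values factors to -1.54 per spike-in molecule. Without the cells with other markers and with all gene counts as totals, Myc went from 0.81 to -0.97 and Fosb from -0.07 to -0.90; the cause was not tested. With all cells taken as from 1 mouse, no spread between animals was measured.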
